A study of Mus musculus with 6 samples.

Results

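Retinoid genes were examined in progenitors sorted from embryoid bodies, as a set of 9 genes for the transport (Rbp4, Stra6), intracellular binding (Crabp1, Crabp2), synthesis (Aldh1a2), breakdown (Cyp26a1) and reception (Rara, Rarb, Rarg) of vitamin A and retinoic acid. They were chosen by gene name, current or older, in the authors' comparison table. Of the 9, 4 were found there: Rbp4, Crabp1, Cyp26a1 and Rarg, each with 1 probe set, so that 4 of 12236 named genes, and 4 of 22526 probe sets, are described. Crabp2, Aldh1a2, Rara, Rarb and Stra6 were not analysed here. That table lists only probe sets with a flag pass value of at least 2 out of 6. The files do not define this value, and it was taken as a count of arrays with detectable signal. It was 6 for Rbp4 and Cyp26a1, 5 for Crabp1 and 2 for Rarg.

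The cells came from CGR8, a feeder-independent mouse embryonic stem cell line, and were left to differentiate in embryoid bodies, aggregates in which the germ layers form. On day 5 they were sorted by flow cytometry for the chemokine receptor CXCR4 and for FLK-1, the receptor of vascular endothelial growth factor that Kdr encodes. Cells carrying both proteins (double positive) and cells carrying neither (double negative) gave 3 samples each, hybridised to Affymetrix mouse expression arrays with 1 array per sample. Both fractions thus share line, day and culture, no treatment or engineered allele is labelled, cells carrying only 1 of the proteins were not profiled, and the series text speaks of RNA pools without saying what was pooled, so p-values measure the spread between these preparations. In bulk samples a lower value can come from fewer cells of a type or from less RNA per cell, and these cannot be told apart.

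Vitamin A travels in blood as retinol bound to retinol-binding protein, which the liver and, in the embryo, the visceral endoderm secrete. Cells oxidise retinol to retinal and retinal to retinoic acid, carry retinoic acid on small cytoplasmic binding proteins, and destroy it with the CYP26 enzymes. Retinoic acid enters the nucleus and binds retinoic acid receptors, which sit as heterodimers with retinoid X receptors on paired DNA motifs of target genes, and it patterns the heart, the hindbrain and the posterior body.

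Those paired motifs can be read in the promoters of this pathway, and are shown because Cyp26a1 and Rarb are textbook targets of retinoic acid. RefSeq promoter windows of GRCm38.p6, 250 bases before to 50 after a start site, were searched on both strands for GTTCA or GGTCA followed in the same direction by GTTCA or GGTCA. The second copy followed after 6, 3 or 2 other bases, which gives the receptor's direct repeats with spacing 5, 2 and 1. The 107 genes were the 9 above and 98 more on the lists described further on, and 76 of them had 102 windows. Spacing 5 occurs in 0.247% of all 32851 windows, spacing 2 in 0.399% and spacing 1 in 0.402%. A repeat was found for 4 genes, and the 30 bases around each are printed 5′ to 3′ on the gene's strand, with the repeat in capitals.
Cyp26a1 (chr19:37697769-37697798, plus strand, spacing 5, repeat on the opposite strand): ttaaagaTGAACTTTGGGTGAACtaatttg
Rarb (chr14:16575506-16575535, minus strand, spacing 5): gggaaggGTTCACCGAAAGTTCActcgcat
Kat2b (chr17:53566746-53566775, plus strand, spacing 5): cctctctGGTCATATTCGGTTCAgaaacta
Bco1 (chr8:117095800-117095829, plus strand, spacing 1, repeat on the opposite strand): cttgggaacTGACCTTTGACCtaacacaca
Relative to the start site of its window, the repeat of Cyp26a1 runs from base -32 to base -17 and that of Rarb from -52 to -37. The RefSeq locus of Cyp26a1 begins earlier, at base 37697738, so the Cyp26a1 repeat lies inside the locus. Read on its own strand, the Cyp26a1 repeat is GTTCACCCAAAGTTCA and the Rarb repeat is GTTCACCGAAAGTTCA. These letters describe the windows only, and the windows of Crabp1, Rbp4 and Rarg held none of the repeats.

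The deposited values are linear ratios. The authors divided each probe set by the median of its 3 double-negative arrays, so values compare arrays and say nothing of the level of 1 gene against another. Over the 22526 probe sets both replicate 1 arrays stood apart, with medians of -0.413 (double positive) and -0.329 (double negative) on the log2 scale against 0 to 0.108 on the other 4. On these arrays 22.3% and 21.1% of probe sets had a ratio under 0.5, against 1.21% to 7.26% on the others. As a check of the sort, the transcripts of both sorted proteins, Cxcr4 and Kdr, were higher on each double-positive array than on any double-negative one.

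Crabp1, Cyp26a1 and Rbp4, 3 of the 4 measured genes, had higher values in every double-positive sample than in any double-negative sample, by 2.80-fold, 2.72-fold and 1.55-fold. Rarg had nearly the same mean in both fractions. Groups that do not overlap in this direction were found for 4.61% of all probe sets, and 21.5% were higher in all 3 comparisons of same-numbered arrays, as these 3 genes were. No difference passed the limma test after Benjamini-Hochberg adjustment over all 22526 probe sets, where 0 probe sets did (0.0%, smallest adjusted p = 0.271). At an unadjusted p under 0.05 the same limma test held 1097 probe sets (4.87%), 310 higher (1.38%) and 787 lower (3.49%), and these included Crabp1 and Cyp26a1.

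**Figure D1:**
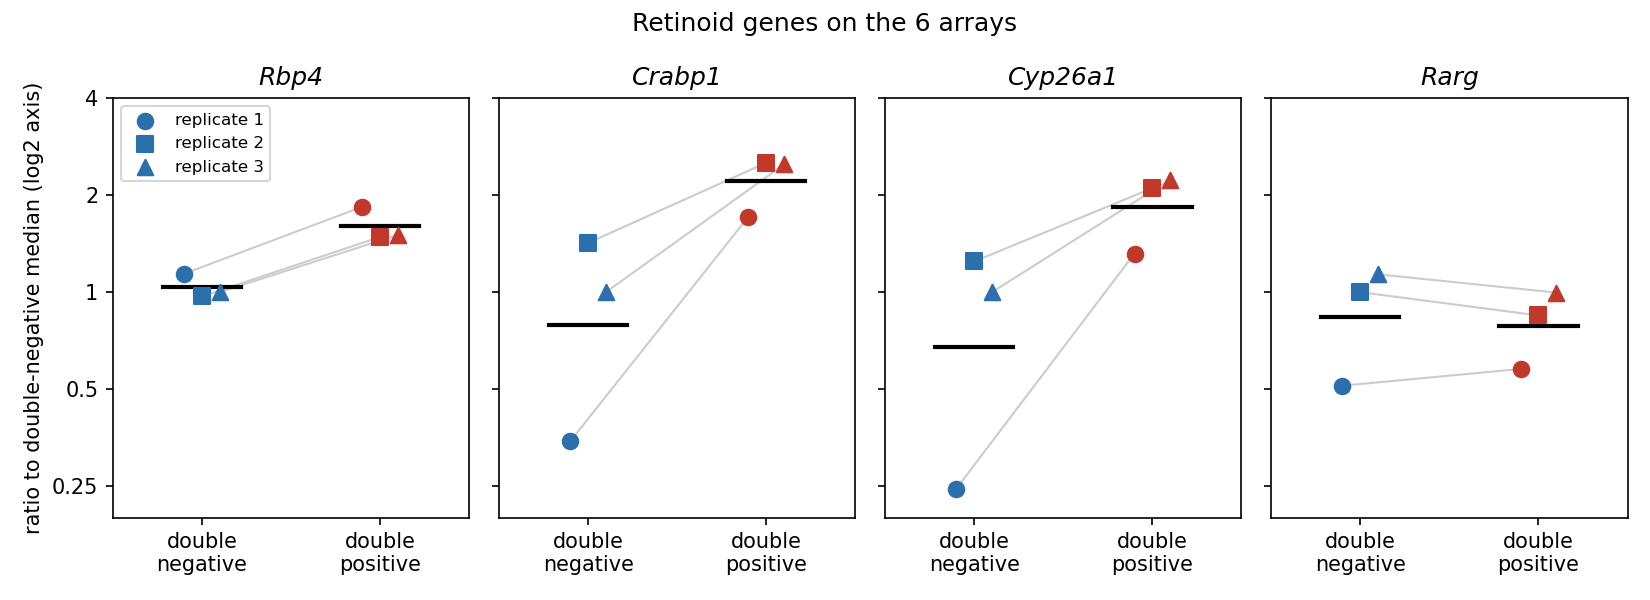
Ratio to the double-negative median (log2 axis) of Rbp4, Crabp1, Cyp26a1 and Rarg on each array; symbols give the replicate number, black bars the geometric mean of 3 arrays, and grey lines join arrays with the same number. The groups do not overlap for Rbp4, Crabp1 and Cyp26a1, and double-negative replicate 1 lies far below its group for Crabp1 (0.345) and Cyp26a1 (0.246).

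Transport was represented by Rbp4, which encodes the plasma carrier of retinol. Its ratios were 1.84, 1.484 and 1.506 in double-positive replicates 1 to 3 and 1.141, 0.97 and 1 in double-negative replicates 1 to 3. Every double-positive sample was above every double-negative one, and the lowest of the former was 1.30 times the highest of the latter, a gap exceeded by 0.644% of all probe sets. The log2 difference was larger in this direction for 6.94% of all probe sets. For Rbp4 it was 0.63 (SE 0.306, n = 3 per group), a 1.55-fold difference with a 95% confidence interval of 0.953 to 2.52. It missed the threshold in the limma test, with an unadjusted p of 0.0716 and an adjusted p of 1.

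Rbp4 was the most even of the 4 genes. Within replicate numbers 1 to 3 its log2 differences were 0.69, 0.61 and 0.59. Their SD was 0.0517, and 1.67% of all probe sets had a smaller one. The authors' deposited table gives Rbp4 a p-value of 0.0089, under 0.05 as for 3.33% of its probe sets, where the other 3 genes have 0.127 (Crabp1), 0.179 (Cyp26a1) and 0.852 (Rarg). The moderated test sets a gene's own spread partly to that of all probe sets, which raises the SE of a gene as even as Rbp4 and lowers that of an uneven one.

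Intracellular binding was represented by Crabp1, a cytoplasmic retinoic acid carrier that delivers the ligand to catabolic enzymes. Its ratios were 1.714, 2.519 and 2.491 in double-positive replicates 1 to 3 and 0.345, 1.421 and 1 in the double-negative ones. All 3 double-positive samples were above the double-negative ones, and the lowest value of all was double-negative replicate 1. The lowest double-positive value was 1.21 times the highest double-negative one, a gap exceeded by 1.145% of all probe sets. The log2 difference was 1.49 (SE 0.533, n = 3 per group), or 2.80-fold with a 95% confidence interval of 1.20 to 6.54, and 0.706% of all probe sets had a larger difference in this direction. The unadjusted limma p was 0.023 and the adjusted p 0.919.

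Breakdown was represented by Cyp26a1, the enzyme that hydroxylates retinoic acid and is itself induced by it. Its ratios were 1.318, 2.102 and 2.235 in double-positive replicates 1 to 3 and 0.246, 1.245 and 1 in the double-negative ones. The groups did not overlap, though the lowest double-positive value was only 1.06 times the highest double-negative one. A larger gap was found for 2.89% of all probe sets. The log2 difference was 1.45 (SE 0.611, n = 3 per group), or 2.72-fold with a 95% confidence interval of 1.03 to 7.20, and 0.768% of all probe sets were higher. The unadjusted limma p was 0.0447 and the adjusted p 0.998.

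Crabp1 and Cyp26a1 had similar profiles over the 6 arrays, though neither was among the genes most like the other that are named further on. In both, replicate 1 was the lowest array of each fraction, and in both the double-negative order was replicate 2, then 3, then 1. Their log2 differences within replicate number were 2.31, 0.83 and 1.32 for Crabp1 and 2.42, 0.76 and 1.16 for Cyp26a1, highest in replicate 1. Double-negative replicate 1 was low for much of the table, and 7.05% of probe sets on it were below Crabp1 and 2.54% below Cyp26a1. The part of that array's general shift in these values was not tested. Rbp4 differed from both, with its highest value of each fraction in replicate 1.

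Double-negative replicate 1 set much of the size of these differences. Without it the log2 difference was 0.89 (SE 0.347) for Crabp1 and 0.72 (SE 0.359) for Cyp26a1, against 1.49 and 1.45 with it, while that of Rbp4 was 0.70 (SE 0.297). Without both replicate 1 arrays Crabp1 was at 1.07 (SE 0.247), Cyp26a1 at 0.96 (SE 0.211) and Rbp4 at 0.60 (SE 0.181). The direction held for all 3 genes in each of these fits, and no adjusted p passed.

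**Figure D2:**
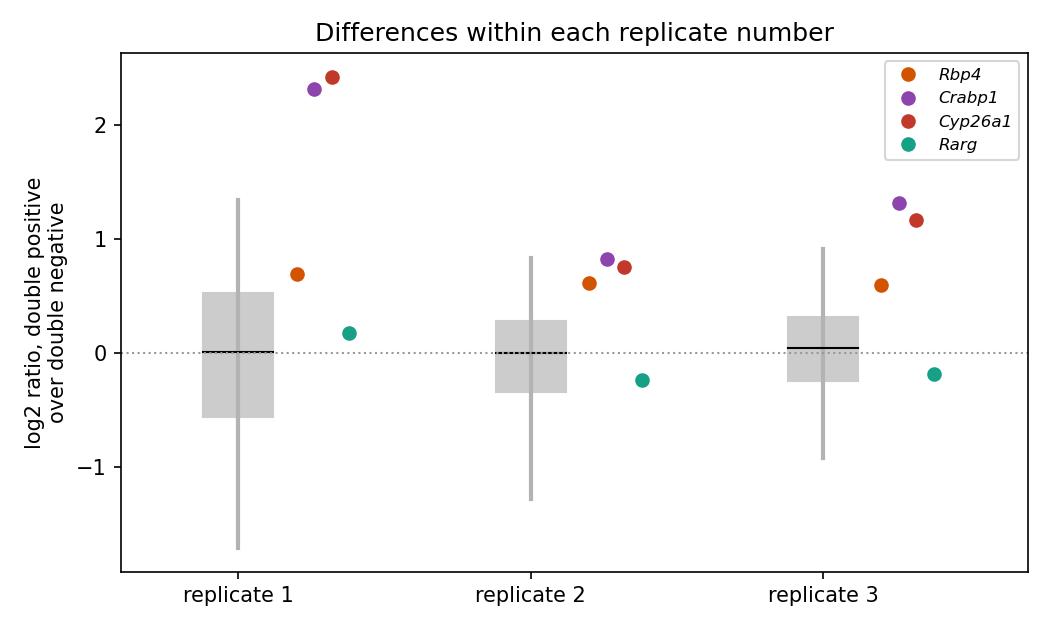
Log2 ratio of the double-positive over the double-negative array of the same replicate number for the 4 genes (points), beside all 22526 probe sets (box, quartiles with the median; line, 5th to 95th percentile). Crabp1 and Cyp26a1 lie above the 95th percentile in replicates 1 and 3 and just under it in replicate 2, Rbp4 lies at 0.59 to 0.69 in all 3, and Rarg lies near 0.

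Reception was represented by Rarg, the gene of retinoic acid receptor gamma, present in embryonic stem cells and early mesoderm. Its ratios were 0.578, 0.847 and 0.997 in double-positive replicates 1 to 3 and 0.513, 1 and 1.136 in the double-negative ones. The groups overlapped, and replicate 1 was the lowest array of each fraction, as for Crabp1 and Cyp26a1. The log2 difference was -0.09 (SE 0.417, n = 3 per group), a ratio of 0.943 with a 95% confidence interval of 0.486 to 1.83 and a limma adjusted p of 1. The flag value of 2 is the lowest in the table, and the interval does not show that Rarg was equal in both fractions. Without double-positive replicate 1, double-negative replicate 2 or double-negative replicate 3 its difference was 0.14, 0.04 or 0.14, so its sign is not settled.

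The rest of the pathway was followed through 5 lists of 98 further genes, of which 60 were measured. In the limma test adjusted over all probe sets 0 passed, and 3 (5%, beside 4.87% of all probe sets) were under 0.05 without adjustment, 1 on the higher and 2 on the lower side. The groups did not overlap for 7 of the 60 (11.7%, with 9.99% over all probe sets), 4 higher (4.61% of all probe sets) and 3 lower (5.38%). The median log2 difference of the 60 was -0.06, beside 0.02 over all probe sets tested. These shares lay near those of all probe sets.

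Among genes of uptake, storage and transport, 9 of 14 were measured, 5 with a higher and 4 with a lower mean. Lrp2, the megalin gene for endocytosis of carrier-bound vitamins, was at 0.94 (SE 0.386, limma adjusted p = 0.978) by the probe set chosen by rule, and its groups did not overlap. A second Lrp2 probe set, with the same flag value of 2, was at -1.46 (SE 0.397) with non-overlapping groups the other way, so Lrp2 has no settled direction. Ttr, the partner of retinol-binding protein in plasma, was at -0.10 (SE 0.436), and another probe set was at -0.77 (SE 0.453). The last was at 0.83 (SE 1.63), which rests on a ratio of 0.01 on double-negative replicate 3, since the other double-negative arrays, at 1.202 and 1, were above all 3 double-positive ones, at 0.23, 0.408 and 0.715. Lrat, the enzyme that esterifies retinol for storage, was at 0.40 (SE 0.830).

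Among the retinol and retinal dehydrogenases and related enzymes, 10 of 23 were measured, 5 with a higher and 5 with a lower mean. Bco1, which cleaves beta-carotene to retinal and whose promoter window holds a repeat with spacing 1, was at 1.24 (SE 0.553, limma adjusted p = 1) with a flag value of 2. Its ratios were 3.525, 1.286 and 1.327 against 0.401, 1.141 and 1, so double-positive replicate 1 was the highest and double-negative replicate 1 the lowest. Cyp1b1, a cytochrome that can oxidise retinol, was at 0.90 (SE 0.456) without overlap. Rdh10, the main retinol dehydrogenase of the embryo, was at -0.72 (SE 0.434) by the probe set chosen by rule and at -0.03 (SE 0.349) by its other one, with overlap in both.

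**Figure D3:**
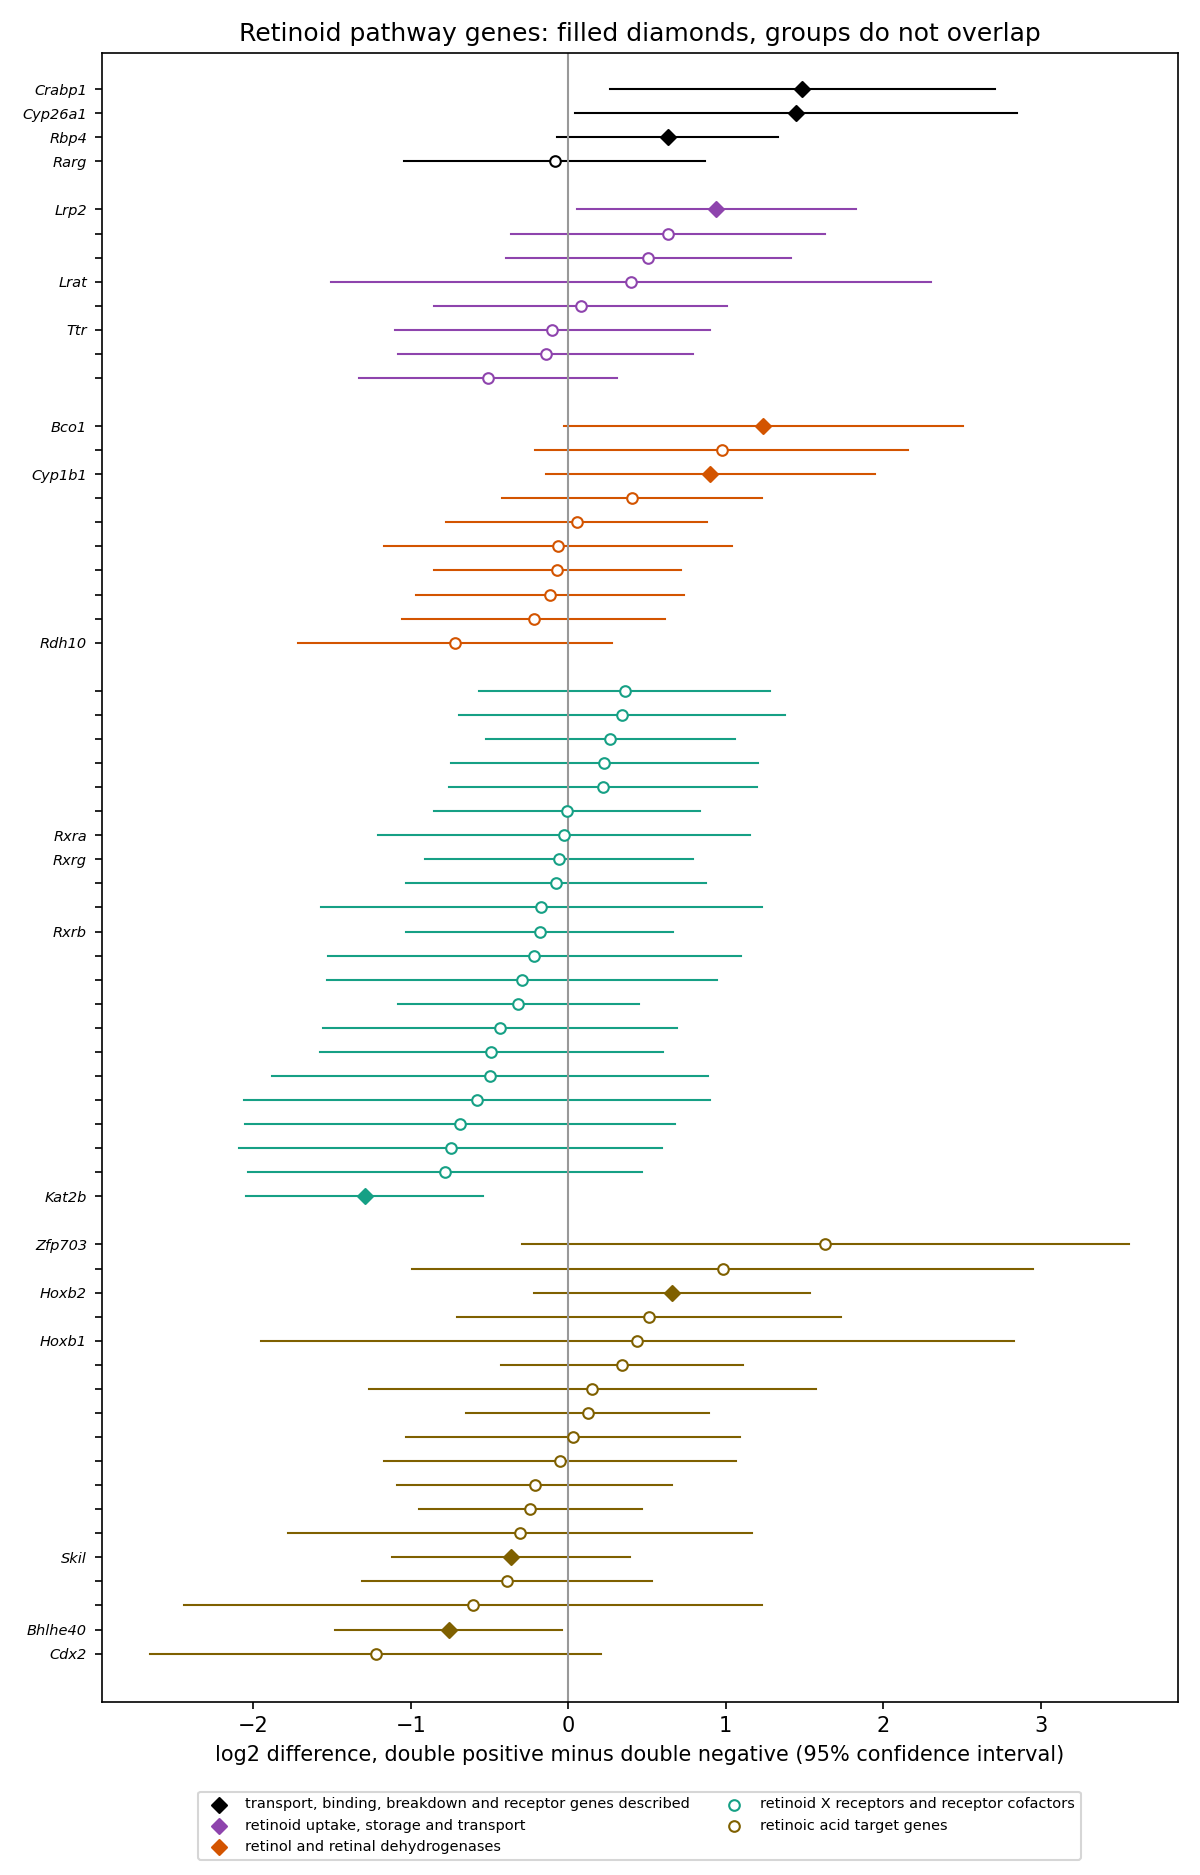
Log2 difference, double positive minus double negative, with its 95% confidence interval from limma, for the 4 genes (black) and for measured genes of 4 further lists (the fifth list had 0 measured genes), with names for the genes described in the text; filled diamonds mark genes whose groups do not overlap. Crabp1 and Cyp26a1 lie at 1.49 and 1.45, and the other lists spread to both sides of 0.

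No breakdown enzyme other than Cyp26a1 was measured, the list of 3 (Cyp26b1, Cyp26c1 and Ugt1a1) having 0 genes in the table. Among retinoid X receptors and cofactors, 22 of 24 were measured, 5 with a higher and 17 with a lower mean and a median of -0.20. Of all 12236 named genes 6664 had a higher and 5571 a lower mean, with a median of 0.04. The 3 retinoid X receptors, obligate partners of the retinoic acid receptors, were at -0.03 (SE 0.517, Rxra), -0.18 (SE 0.369, Rxrb) and -0.06 (SE 0.372, Rxrg, with a flag value of 2). Kat2b, an acetyltransferase that acts as a coactivator and whose promoter window holds a repeat with spacing 5, was at -1.29 (SE 0.327, limma adjusted p = 0.664). Its ratios were 0.342, 0.334 and 0.491 in double-positive against 0.812, 1 and 1.019 in double-negative samples, without overlap. Its second probe set was at -0.40 (SE 0.499), with overlap.

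Genes known to respond to retinoic acid went both ways. Of 38 listed 20 were measured, 10 with a higher and 10 with a lower mean, at a median of -0.003, and 0 passed the limma test over all probe sets. The groups did not overlap for Hoxb2, a hindbrain homeobox gene, at 0.66 (SE 0.383), for the repressor gene Bhlhe40, with a flag value of 2, at -0.76 (SE 0.314) and for Skil, a SMAD inhibitor, at -0.36 (SE 0.331). Hoxb1, an anterior homeobox gene and early direct target of retinoic acid, was at 0.44 (SE 1.04), with overlap and an interval that includes 0.

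The target genes with the highest and the lowest difference, Zfp703 and Cdx2, were added after their values were seen. Zfp703 had ratios of 1.092, 3.988 and 1.732 in double-positive and 0.164, 1.547 and 1 in double-negative replicates 1 to 3. The groups overlapped, and within replicate numbers the log2 differences were 2.74, 1.37 and 0.79 (mean 1.63, SE 0.840, limma adjusted p = 1). Cdx2 is a caudal homeobox gene of the posterior body and of trophoblast. Its ratios were 0.173, 0.41 and 0.674 in double-positive and 0.411, 1 and 1.478 in double-negative replicates 1 to 3. The groups overlapped, but within replicate numbers the log2 differences were -1.25, -1.29 and -1.13 (mean -1.22, SE 0.624, limma adjusted p = 1).

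Markers of other cell types differed between the fractions too, and their part in the values above was not tested. Rbp4 is made by visceral endoderm, for which 15 of 24 extraembryonic endoderm genes were measured, 9 with a higher and 6 with a lower mean. Their mean log2 ratio ran from -0.373 to 0.572 on the double-positive arrays and from -0.856 to 0.158 on the double-negative ones, so the ranges overlapped, while the double-positive array was the higher one in each replicate number. Their differences ranged from -0.84 to 1.71. The groups did not overlap for 4 of the 15, all higher, beside 4.61% of all probe sets in this direction. Of these Sox7, a transcription factor of primitive endoderm and of early endothelium, was at 1.71 (SE 0.397). Ihh, a ligand from visceral endoderm, was at 0.63 (SE 0.33), and Lrp2 was another, though its probe sets disagree. The 6 with a lower mean all overlapped. Among them Cited1 was at -0.84 (SE 1.07), Sox17 at -0.80 (SE 0.735) and Foxa2 at -0.50 (SE 0.507). A second Sox17 probe set had a difference the other way. As the values are ratios, they do not show whether a marker was absent from a fraction.

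For paraxial and lateral mesoderm 11 of 17 markers were measured, 8 with a higher and 3 with a lower mean. Hand2, a factor of heart and lateral mesoderm, was the highest, at 2.18 (SE 0.54). It was the only 1 of the 11 without overlap, beside 4.61% of all probe sets in this direction. The 3 with a lower mean were Wt1 (-0.77, SE 0.623), Tcf15 (-0.69, SE 0.69) and Tbx6 (-0.19, SE 0.437). The mean log2 ratio of the 11 was -0.1, 0.635 and 0.778 on double-positive and -0.701, 0.118 and 0.223 on double-negative replicates 1 to 3. It was higher on the double-positive array of each number with overlapping ranges. For neural tissue, another site of Crabp1, 6 of 16 were measured, 3 higher and 3 lower, from -1.11 to 0.36. Their mean log2 ratio was -0.71 to -0.134 on double-positive and -0.966 to 0.472 on double-negative arrays. Of 13 measured pluripotency markers 12 had a lower mean in double-positive cells, led by Sox2 (-2.58, SE 0.341), Dppa3 (-2.05, SE 0.385) and Pou5f1, which encodes OCT4 (-1.30, SE 0.425). The mean of the 13 was -1.167 to -0.943 on double-positive and -0.2 to 0.145 on double-negative arrays, without overlap. These marker differences did not pass the limma test adjusted over all probe sets.

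The genes most like each of the 3 non-overlapping members were sought among 10886 conventionally named genes, as the smallest root mean square difference of log2 ratios over the 6 arrays. For Rbp4 they were Sema6d (0.0772), Egln3 (0.0887) and Pdzk1ip1 (0.0906), all higher in the double-positive samples by 0.49 to 0.69 on the log2 scale. For Crabp1 they were Grb14 (0.184), Eya1 (0.231) and Tmem88 (0.231), and for Cyp26a1 Bmp6 (0.177), Tmem97 (0.263) and again Eya1 (0.265). Eya1, at a log2 difference of 1.18, was the gene near both Crabp1 and Cyp26a1, with ratios of 1.583, 1.972 and 1.86 against 0.339, 1.474 and 1. Since likeness was measured on these same 6 arrays, the direction of all these genes follows from how they were chosen.

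**Figure D4:**
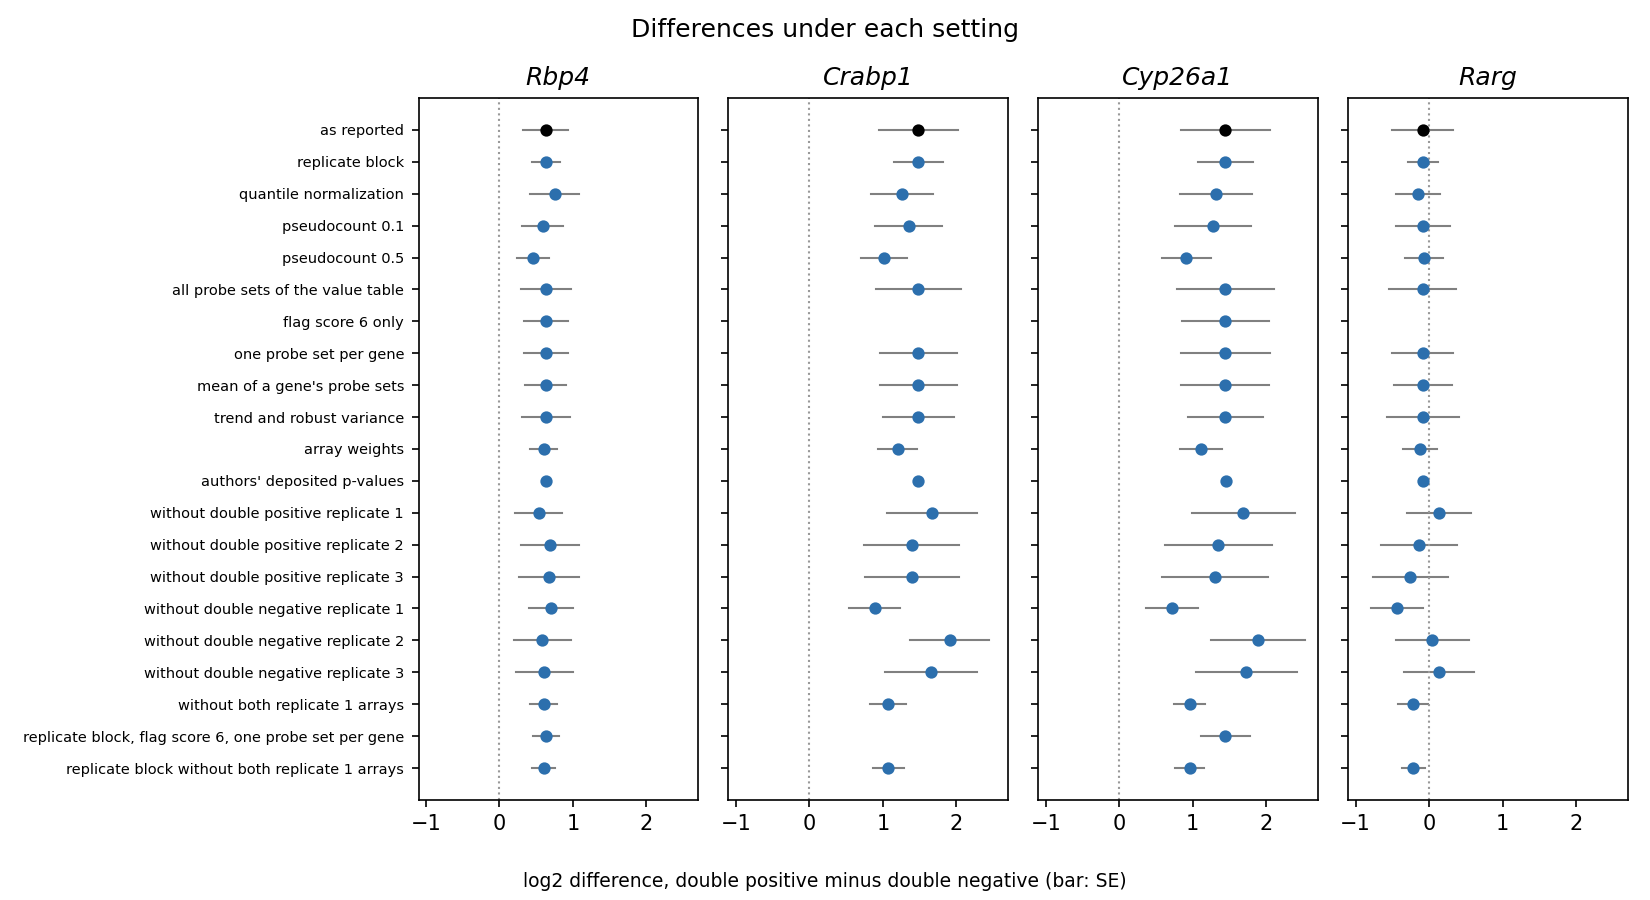
Log2 difference (points) and its SE (bars) of the 4 genes as reported (black) and under each alternative setting (blue), where the gene could be fitted; the authors' deposited values have no SE. Rbp4, Crabp1 and Cyp26a1 stay above 0 throughout, with the lowest values at 0.45, 0.89 and 0.72, and Rarg lies on both sides of 0.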

How the data were processed

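The authors' deposited value table is a matrix of 45101 probe sets by 6 arrays in linear ratios. Since the 3 double-negative columns of every probe set (100%) have a median of 1, the authors' divisor was that median. How probes were summarised or arrays scaled is not given in the sources used here. A second file deposited by the authors, per the file headers, lists 22526 non-control probe sets, most with a gene name, each with its fold, p-value and flag score from 2 to 6. Its fold equals the ratio of geometric group means for 100% of probe sets within 1%.

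Gene names were updated through RefSeq (GRCm38.p6). Of them 11499 were a single current name, and 8630 were a synonym or several names that led to 1 gene. A further 1107 were kept as given, and 178 with several candidates and 1112 without a name were left unassigned. The members and lists were chosen with earlier results of these data known. Further genes stand by 1 probe set each (highest flag value, then plainest and lowest identifier). Named are all members, up to 3 non-overlapping genes per list, and defining genes of each step. Log2 ratios, without pseudocount, entered a limma fit (version 3.58.1, R 4.3.3, lmFit and eBayes, two-sided) over both groups of 3, with Benjamini-Hochberg adjustment over 22526 probe sets at a threshold of 0.05. The fit was tested on simulated data. The number of arrays limits the precision. The ratios keep no brightness.

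Deviations from the group means of same-numbered arrays correlated at 0.487, 0.34 and 0.206 for numbers 1 to 3. Double-positive replicate 3 correlated at 0.205 with double-negative replicate 2 as well. Same-numbered arrays were taken as pairs only for differences within a replicate number and for the blocked alternatives. The reported limma fit had no replicate block, so its SEs, intervals and p-values are unpaired. The labels call the arrays of each fraction biological replicates 1 to 3. They do not say whether same-numbered arrays of both fractions share a differentiation. The blocked fit, quantile normalization, pseudocounts of 0.1 and 0.5, other probe set choices, variance models, array weights and left-out arrays were alternatives. Some measured pathway genes are counted in the lists but not reported singly here.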

Additional observations from a re-analysis of the deposited data

How the results depend on the processing

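Crabp1, Cyp26a1 and Rbp4 kept their direction and missed the adjusted threshold under each alternative that could be fitted (18, 20 and 20 of them), with log2 differences of 0.89 to 1.91, 0.72 to 1.89 and 0.45 to 0.75 and lowest adjusted p of 0.085, 0.115 and 0.173. With 1 array left out they ran from 0.89 to 1.91, 0.72 to 1.89 and 0.53 to 0.70. Rarg then ran from -0.44 to 0.14. It turned positive, at 0.14, 0.04 and 0.14, when double-positive replicate 1, double-negative replicate 2 or double-negative replicate 3 was left out, so it has no settled sign, and the cause was not tested. With the replicate block no adjusted call changed, and limma adjusted p was 0.266 for Crabp1, 0.296 for Cyp26a1 and 0.34 for Rbp4. Unadjusted, these 3 were under 0.05 with the block, as were 12.3% of all probe sets.

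The count of the 4 members under 0.05 without adjustment, 2 as reported, was 1 over all probe sets of the value table, 1 among probe sets with flag value 6 (which leaves out Crabp1 and Rarg) and 1 by the authors' deposited p-values. It was 3 with the replicate block, with array weights and, blocked or not, without both replicate 1 arrays. Unadjusted calls over all 22526 probe sets, 310 higher and 787 lower as reported, rose in these settings too. They were 1131 higher and 1630 lower with the block, and 1476 and 1840 with array weights. Without both replicate 1 arrays they were 814 and 1283, or 1050 and 1513 when blocked. It was 0 to 2 with 1 array left out, 0 when that array was double-positive replicate 2 or 3 and 1 when it was double-negative replicate 1. Adjusted calls over all features, 0 as reported, were 1 with a pseudocount of 0.5, 187 with array weights (40 higher, 147 lower) and 0 to 1 with 1 array left out, the 1 being without double-positive replicate 3. With the block among genes of flag value 6, a setting chosen after seeing the data, 80 of 8576 genes passed, among them 2 pathway genes, Cdx2 (limma adjusted p = 0.0433) and Kat2b (0.0474). Higher genes made up 28.3% of the unadjusted calls as reported, 32.9% once quantiles were equalised and 58.8% under a trended, robust variance. Leaving out 1 array moved the median of all probe sets to between -0.15 and 0.18. The median of the 60 further pathway genes then ran from -0.38 to 0.13.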
